A study of Mus musculus with 9 samples.

Results

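The renal vesicle, the first epithelial ball of the future nephron, was compared with the collecting duct, the branched epithelium beside which it forms. The members of this comparison were chosen by sample label: 6 of the 9 arrays of the series, 3 of renal vesicle and 3 of collecting duct, each hybridised to an Affymetrix MOE430A array. All samples, also those of the third structure of the series, the s-shaped body, came from wild-type kidneys of strain 129 at E14.5 (embryonic day, Theiler stage 22), with sex unknown. Each renal vesicle sample pooled 20 structures, whereas the pool size given for a collecting duct sample is 1, without pooling. The structures were dissected by their shape, and their RNA went through 2 rounds of T7 amplification. The labels call each sample a biological replicate but do not name the embryos, so the p-values below measure the spread between such samples.

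The nephron and the collecting duct come from different parts of the intermediate mesoderm. The collecting duct grows out of the ureteric bud as a polarised tube and keeps branching, whereas the renal vesicle condenses from mesenchyme that has just turned epithelial and will go on to form glomerulus and tubule. Both are epithelia of the same age and place. The results below concern gene families and pathways other than the best-known genes of nephron induction.

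Values are deposited array intensities, given per array in the order of the replicate numbers. Differences are log2 differences, renal vesicle minus collecting duct, as estimate ± SE from 3 arrays against 3, after a pseudocount of 26 that shrinks the differences of dim genes. A change is an adjusted p under 0.05 with limma over all genes tested, and "higher" or "lower" without further words means higher or lower in the renal vesicle. Intensities of different genes come from different probe sets and are not compared with each other. In pooled tissue, fewer cells that express a gene and less RNA per cell cannot be told apart.

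Of 7998 genes tested, 2519 changed (31.5%), 1251 of them higher (15.6%) and 1268 lower (15.9%). The 3 arrays of one structure did not overlap those of the other for 3463 genes (43.3%). Of the changed genes, 556 were at least 2-fold higher and 656 at least 2-fold lower, and 63 and 79 passed 8-fold. When arrays were centred on their medians and not quantile normalised, 1559 genes were higher and 1045 lower, so that 59.9% of the changes were higher instead of 49.7%, and moved the median of all genes from 0.01 to 0.11. Correlations across genes were 0.962 to 0.982 among the renal vesicle arrays, 0.939 to 0.977 among the collecting duct arrays and 0.818 to 0.863 between the structures.

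The labels were set against marker genes. Of 27 measured genes of the collecting duct trunk, 23 were lower and 1, Calb1, was higher. Of the 27, Calb1 was kept by the filter on low values through the renal vesicle arrays alone and 2 genes through the collecting duct arrays alone. Such genes had to differ, and they can fail the filter when 1 of those arrays is left out. Under a stricter filter, which asks for signal above the array median on 6 arrays, 11 were lower. Aqp2, the vasopressin-regulated water channel of the mature duct, was at 124, 207 and 162 in the renal vesicle and 159, 176 and 258 in the collecting duct and did not pass the test. Of 9 urothelial genes 8 were lower, and their summed intensity was 20480 to 22418 in the collecting duct against 630 to 892 in the renal vesicle, so that urothelial genes were bright in the samples labelled collecting duct. Foxa1, Klf5, Pparg and Krt7, named again below, are on this urothelial list. Of the 9, 5 were kept through the collecting duct arrays alone, and with any 1 of those arrays left out 4 of the 5 still tested were lower. Of 8 genes of the cap mesenchyme, the source of the vesicle, 6 were higher and 1, Osr1, was lower. Of the 8, 2 were kept through the renal vesicle arrays alone and Osr1 through the collecting duct arrays alone. Of 7 genes of the ureteric tip 4 were higher, with sums of 17979 to 22456 in the renal vesicle and 4178 to 4240 in the collecting duct. Ccnd1 alone, with values given below, made up most of each renal vesicle sum, so the sums do not speak for the list. The 4 higher genes were Lhx1 and Mycn, known from early nephron cells too, Ccnd1 and Wnt11, while Wnt6, Sox9 and Spry1 did not pass the test. Of 9 genes of tubule precursors Irx3, Hnf4a and Cdh6 were higher and Cdh16 was lower, with sums of 3122 to 5165 in the renal vesicle and 6700 to 10753 in the collecting duct. Among 13 genes of stroma and mural cells, 6 were higher, including Foxd1 and Col3a1, and 3 were lower (Des, Rgs5 and Postn), with sums of 2073 to 3580 in the renal vesicle and 1987 to 2205 in the collecting duct. Of the 17 endothelial genes other than Cldn5, 2 were higher and 2 lower, with sums of 1421 to 1962 in the renal vesicle and 1427 to 1934 in the collecting duct. Of 5 macrophage genes 2 were lower, with sums of 386 to 640 and 1421 to 2010, and the 3 neural genes did not pass the test. Hbb-y, an embryonic globin, was at 1416, 2464 and 298 in the renal vesicle and 1.48, 2313 and 5.3 in the collecting duct, bright in all renal vesicle arrays and in collecting duct array 2 alone, and did not pass the test. The part of other cells in the results below was not tested.

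Renal vesicle array 3 stood apart from the other two. In it 80 genes were at least 2-fold above both other renal vesicle arrays and 94 at least 2-fold below both, against 12 to 23 and 20 to 21 genes for the others. Podxl, a sialomucin of podocytes, was at 248, 247 and 3018 in the renal vesicle and 146, 165 and 183 in the collecting duct, and Ptpro, a podocyte phosphatase, at 85.3, 120 and 1578 in the renal vesicle and 35.2, 36.6 and 102 in the collecting duct. Array 3 was thus far above the other 2 in these podocyte genes. Ptpro was higher by 2.08 ± 0.72 while Podxl did not pass the test. Without array 3 both passed, at 0.90 and 0.66, but in its dimmest probe set each had the opposite sign (-0.28). Of 14 podocyte genes 6 were higher and 1 was lower, or 0 lower without array 1 and 4 lower without array 3. Their summed intensity was 10995, 10520 and 21184 in the renal vesicle and 11155, 11323 and 8741 in the collecting duct. Renal vesicle array 3 was far below the other 2 for Calb1, the calcium-binding protein calbindin, at 6589, 9324 and 341 in the renal vesicle and 54.6, 70.9 and 72.5 in the collecting duct. The same held for Cldn8, a claudin of the distal nephron and duct, at 384, 653 and 13.4 in the renal vesicle and 4630, 4140 and 4439 in the collecting duct. In the collecting duct, array 3 was the one apart, with 67 genes at least 2-fold above and 191 at least 2-fold below both others. As an alternative, renal vesicle array 3 was left out together with collecting duct array 2, which held the globin signal, and 1543 genes then changed. The 2 left-out arrays are called the array pair below. List counts given below that moved by more than 1.5-fold without the array pair, or without 1 array, are followed by the moved count. Of the 371 changed genes followed, 37 failed the filter without the array pair, 15 without 1 renal vesicle array and 21 without 1 collecting duct array, so counts fall in part because fewer genes were tested.

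**Figure D1:**
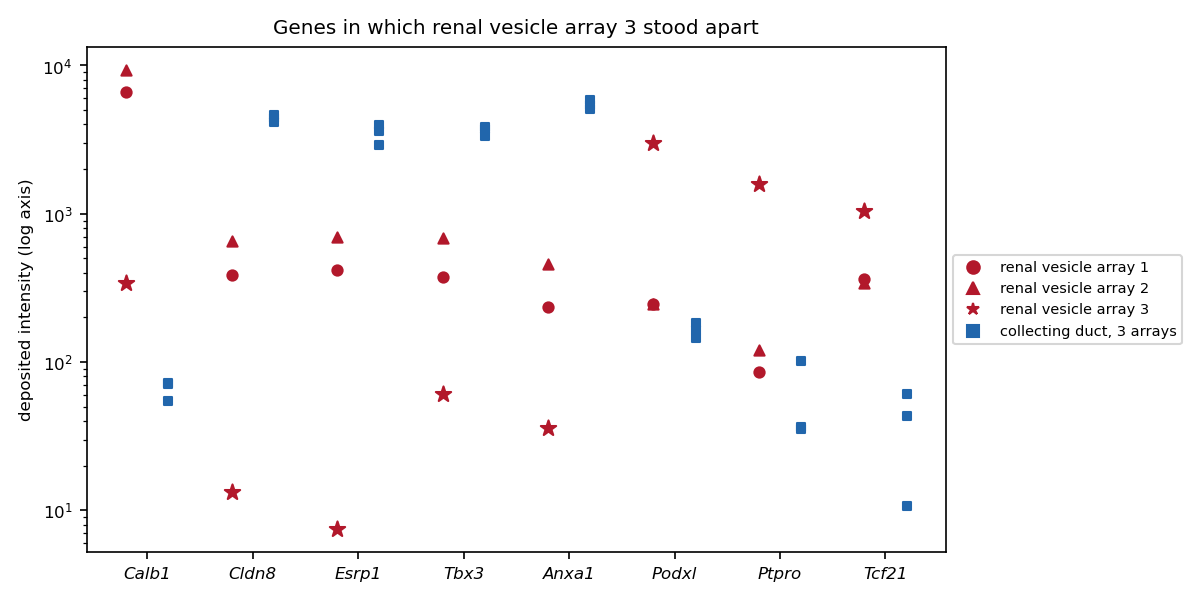
Deposited intensity, on a log axis, of 8 genes in the 3 renal vesicle arrays (circle, triangle, star) and the 3 collecting duct arrays (squares). Renal vesicle array 3 lies below the other two for Calb1, Cldn8, Esrp1, Tbx3 and Anxa1 and above them for Podxl, Ptpro and Tcf21.

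In all, 42 gene lists were examined. They held 1405 tested genes, of which 675 changed (48%, against 31.5% of all genes). The lists were written with earlier results of these data known, so this excess is no finding. In 38 of the 42 lists members changed in both directions, 15 lists had more members higher and 25 more members lower. Some calls named below were lost when arrays were left out. Without renal vesicle array 1, Atp1b3, Bmpr2, Eed, Foxo1, Ift27, Igfbp2, Itgb5, Shmt1, Slc2a1, Tpm1 and Tpm3 did not pass, without array 2 Atp1b3, Bmpr2, Ccnd3, Ext2, Fzd7, Ift27, Itga6, Itgb5, Mcm6, Mki67, Sox4, Srsf3, Tpm1 and Tpm3, and without array 3 Acadm, Bmpr2, Fzd7, Mcm6, Rarg, Slc2a1, Sox17 and Tpm3. Without collecting duct array 1 Acadm, Ext2, Fzd7, Ift27, Mcm6, Ptpro, Tpm1 and Tpm3 did not pass, without array 2 Acadm, Atp1b3, Bmpr2, Ext2, Foxo1, Fzd7, Ift27, Itga3, Mcm6, Ptpro, Rarg, Slc2a1, Sox4, Tpm1 and Tpm3, and without array 3 Bmpr2, Itgb5, Rarg, Slc2a1 and Srsf3. Without the array pair Acadm, Bmpr2, Ccnd3, Cdc25b, Cldn2, Col1a2, Eed, Elk4, Ext2, Foxo1, Fzd3, Fzd7, Hs6st1, Hsp90aa1, Id1, Ift27, Igf2bp1, Itga3, Itga6, Mcm4, Mcm6, Mki67, Ppargc1a, Ptpro, Rarg, Slc2a1, Slc2a2, Sox4, Sox17, Srsf6, Srsf10, Tpm1 and Tpm3 did not pass. With the dimmest in place of the brightest probe set of a gene, Acvr2a, Anxa2, B2m, Bmpr2, Cbx1, Ccnd2, Col4a1, Eed, Esrp2, Ezr, Fgfr2, Foxo1, Foxp1, Gadd45b, Gja1, Hsp90aa1, Id2, Ift27, Igf2bp3, Jarid2, Mcm3, Npnt, Ppargc1a, Rgs5, Rxra, Satb1, Shmt1, Srsf10, Srsf3 and Tuba4a did not pass. Leaving out s-shaped body array 1 lost the calls of Fzd7, Ift27, Ptpro, Slc2a1 and Tpm1. Leaving out its array 2 lost Fzd7, Ptpro, Slc2a1, Tpm1 and Tpm3, and its array 3 Fzd7, Ptpro and Tpm3. Of the genes named below as not past the test, Cyp51, Dnmt3a, Dsp, Egfr, Hspa5, Hspa8, Id4 and Mcm2 passed in their dimmest probe set. The filter on low values kept 68 of the 7998 genes through the renal vesicle arrays alone and 112 through the collecting duct arrays alone, and such genes had to differ.

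**Figure D2:**
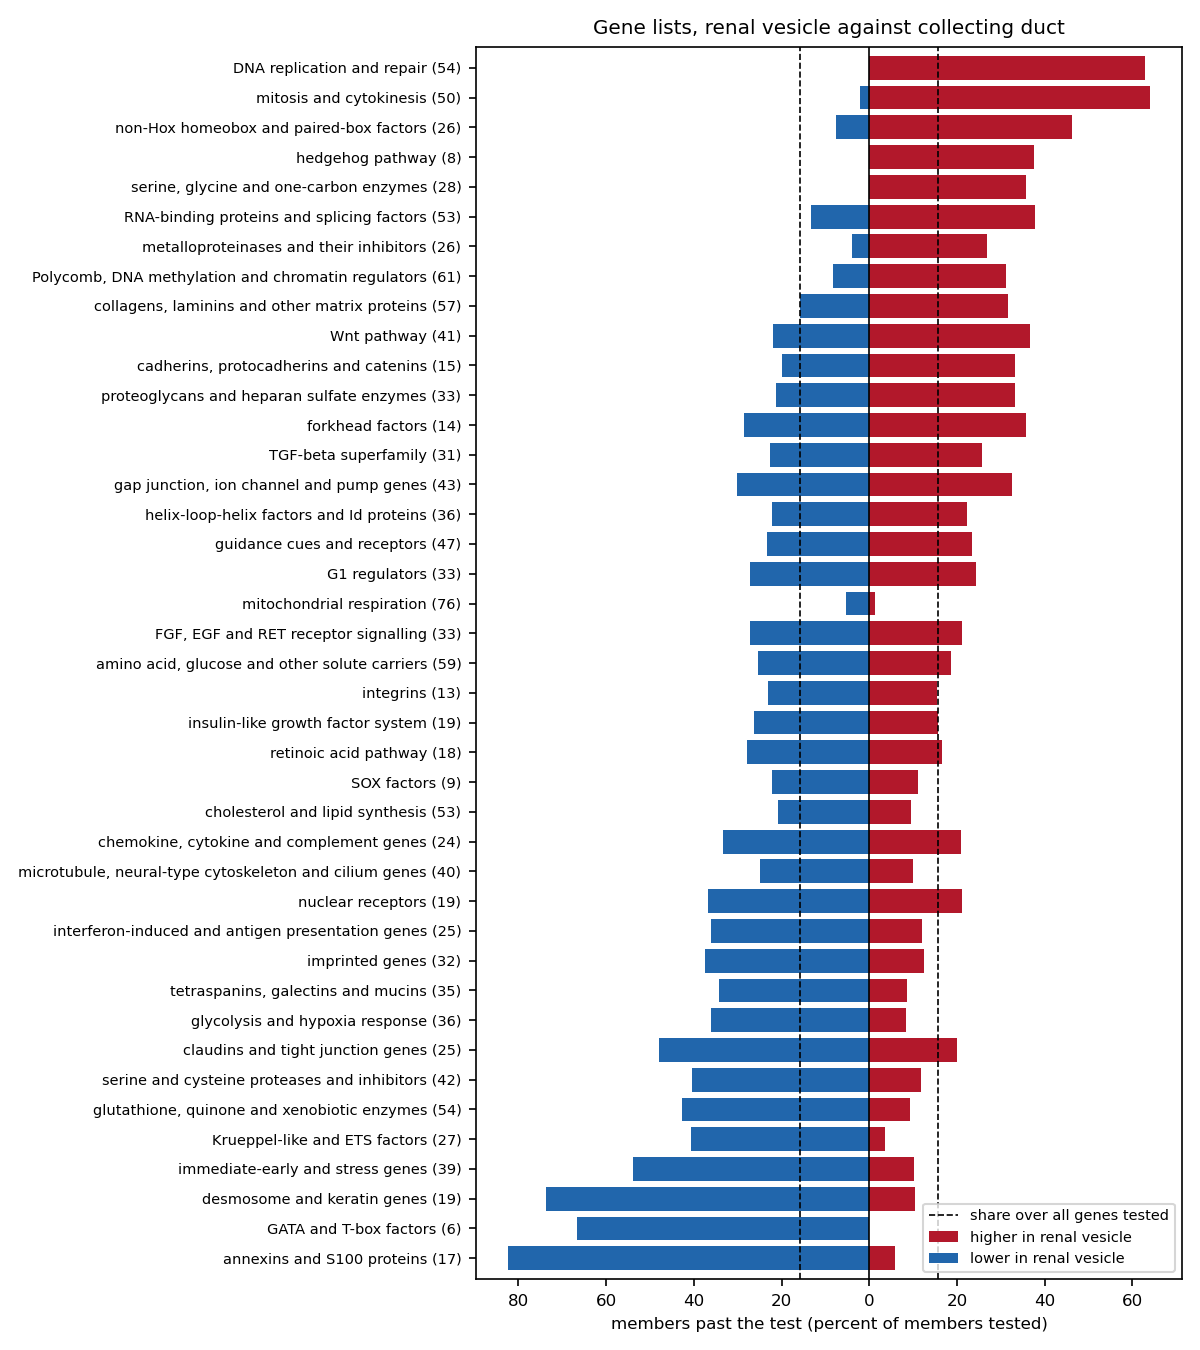
Share of tested members that were higher (red, to the right) or lower (blue, to the left) in the renal vesicle, for 41 of the 42 gene lists with the number of members tested in brackets. Dashed lines mark the shares over all genes tested, 15.6% and 15.9%. Replication and mitosis genes lie at the top and annexins, GATA and T-box factors and keratins at the bottom, while most lists have members on both sides.

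Several families of transcription factors were split between the structures. Of 14 forkhead genes 5 were higher and 4 lower. Foxc2, which with Foxc1 patterns the mesoderm that gives rise to the kidney and acts later in podocytes, was at 1085, 754 and 1284 in the renal vesicle and 7.5, 13.4 and 6.86 in the collecting duct. The arrays did not overlap, and the log2 difference was 4.95 ± 0.20 (adjusted p = 7.9e-09). Foxc1 was higher by 2.30 ± 0.22 and Foxd1, a factor of the renal stroma, by 2.33 ± 0.37. Foxa1 was the opposite, at 29.1, 84 and 52 in the renal vesicle and 8822, 11208 and 11507 in the collecting duct. Its difference of -7.04 ± 0.23 was the largest fall among changed genes whose arrays did not overlap. Foxq1 was lower too, at 64.9, 83.8 and 87.2 in the renal vesicle and 312, 467 and 517 in the collecting duct (-2.01 ± 0.26). Foxp1 and Foxo1 were lower by smaller amounts (-0.85 ± 0.17 and -0.70 ± 0.20). Foxm1, the forkhead factor of mitotic gene transcription, did not pass the test (-0.06 ± 0.22). Of the 14 genes 2 were kept through the collecting duct arrays alone, and the lower count was 1 without collecting duct array 2 or the array pair and 2 without collecting duct array 1 or 3.

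All 4 changed members of the 6 GATA and T-box genes were lower. Gata2 was at 393, 590 and 405 in the renal vesicle and 2381, 2273 and 2296 in the collecting duct, a difference of -2.24 ± 0.18 with no overlap (adjusted p = 2.2e-06). Gata3, required for the ureteric bud to form, differed by -2.84 ± 0.45, Tbx3 by -3.59 ± 0.54 and Tbx2 by -2.61 ± 0.47. For Tbx3 the renal vesicle arrays themselves spread widely, at 376, 682 and 60.9 in the renal vesicle and 3353, 3702 and 3826 in the collecting duct, with array 3 lowest. Gata4 and Gata5 did not pass the test. No gene of the list was higher with limma, nor at an unadjusted p under 0.05 (0 genes).

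Nuclear receptors split 4 higher against 7 lower among 19. Besides Nr2f1, its relative Nr2f2 was higher (1.16 ± 0.25), as was Hnf4a, the master regulator of proximal tubule and liver genes, at 374, 474 and 757 in the renal vesicle and 138, 43.2 and 158 in the collecting duct (log2 difference 2.22 ± 0.41, adjusted p = 0.0013). The lower group included receptors for lipids and hormones. Pparg, a fatty acid sensor, was near the floor in the renal vesicle, at 3.99, 4.41 and 4.62 in the renal vesicle and 441, 328 and 316 in the collecting duct, and differed by -3.60 ± 0.25. Rxra, its partner receptor and that of the retinoic acid receptors, was at 174, 194 and 221 in the renal vesicle and 1058, 1007 and 997 in the collecting duct (-2.13 ± 0.16), and Nr3c1, the glucocorticoid receptor, at 116, 151 and 132 in the renal vesicle and 967, 679 and 410 in the collecting duct (-1.96 ± 0.26). The arrays of the structures did not overlap for any of these.

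Of 26 homeobox and paired-box genes outside the Hox clusters, 12 were higher and 2 lower, with a median of 0.59. Irx3, a factor of the middle part of the nephron, was at 862, 1430 and 1366 in the renal vesicle and 57.7, 84.1 and 110 in the collecting duct, and differed by 3.58 ± 0.24 (adjusted p = 4.7e-07). Meox2, a mesodermal factor, was at 335, 322 and 255 in the renal vesicle and 8.82, 19.6 and 2.14 in the collecting duct (3.31 ± 0.24). Meis1 and Meis2, cofactors of Hox proteins, were higher by 2.53 ± 0.20 and 3.12 ± 0.29, and Zeb1, a repressor of epithelial genes, by 2.54 ± 0.30. Every one of these was above all collecting duct arrays in each renal vesicle array. Uncx, a cap mesenchyme gene, was higher by 4.93 ± 0.25, and Pax8, an early nephron gene, by 1.52 ± 0.20. The 2 lower genes were Satb1, a chromatin organiser (-1.31 ± 0.17), and Msx2, a target of BMP signals, at 44.4, 14.7 and 15.2 in the renal vesicle and 194, 211 and 172 in the collecting duct. Of the 26 genes, 4 were kept through the renal vesicle arrays alone and had to be higher. Over all 67 members on the array, without the filter, 12 were higher, 4 were lower and the median was 0.04. Without the array pair or renal vesicle array 2, 7 were higher, and without the pair or any 1 collecting duct array 1 was lower.

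Of 27 Krüppel-like and ETS factors 1 was higher and 11 were lower (median -0.47). Klf6, an early response factor, was at 246, 270 and 178 in the renal vesicle and 3089, 4696 and 8779 in the collecting duct, and differed by -4.20 ± 0.29 (adjusted p = 6.1e-07). Klf5, a factor of proliferating barrier epithelia, was at 58.1, 85.8 and 55.1 in the renal vesicle and 687, 1018 and 856 in the collecting duct (-3.14 ± 0.23). The epithelial ETS factors Elf5 and Ehf were lower by -2.42 ± 0.28 and -3.33 ± 0.42, as was Elf1 (-1.97 ± 0.23). For all 5 the structures did not overlap. The higher gene was Elk4, a partner of serum response factor (0.54 ± 0.15), a call lost without renal vesicle array 2 or 3, collecting duct array 2 or the array pair, while 3 genes were higher without collecting duct array 1. Of the 27 genes 1 was kept through the renal vesicle arrays alone and 2 through the collecting duct arrays alone.

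Helix-loop-helix genes were balanced in number, at 8 higher and 8 lower of 36, but not in size. Of these, 3 were at least 8-fold higher and 0 at least 8-fold lower. Mycn, which keeps nephron progenitors growing, was at 3855, 3151 and 2990 in the renal vesicle and 416, 563 and 400 in the collecting duct, a difference of 2.78 ± 0.19 (adjusted p = 5e-07), whereas its relative Myc did not pass the test (0.34 ± 0.21). Tcf21, a factor of kidney mesenchyme and podocytes, was higher by 3.24 ± 0.38 and stood at 365, 344 and 1037 in the renal vesicle and 43.6, 61.4 and 10.7 in the collecting duct, with renal vesicle array 3 highest. The Notch targets Hes5, Hey1 and Heyl were higher by 6.41 ± 0.23, 5.83 ± 0.25 and 1.68 ± 0.16. Sim1 was higher by 2.57 ± 0.23 in its brightest probe set, but another probe set of the gene gave the opposite sign (-0.54 with the dimmest). Ahr, the dioxin receptor, was at 503, 686 and 462 in the renal vesicle and 3826, 2999 and 2422 in the collecting duct and lower by -2.40 ± 0.22. Id1 and Id2, inhibitors of helix-loop-helix factors and targets of BMP signals, were lower by -0.86 ± 0.22 and -1.28 ± 0.26, while Id3 and Id4 did not pass the test. Without renal vesicle array 3 or the array pair 5 genes of the list were higher, and without the pair 5 were lower. Of the 9 SOX genes 33.3% changed, against 31.5% of all genes. Sox11 was higher (1.14 ± 0.20). Sox4 and Sox17 were lower by under 1 log2 unit (-0.59 ± 0.15 and -0.85 ± 0.23), with the opposite sign in their dimmest probe sets. Of these 2, 1 was lower without renal vesicle array 2 or 3 or collecting duct array 2, and neither passed without the array pair.

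**Figure D3:**
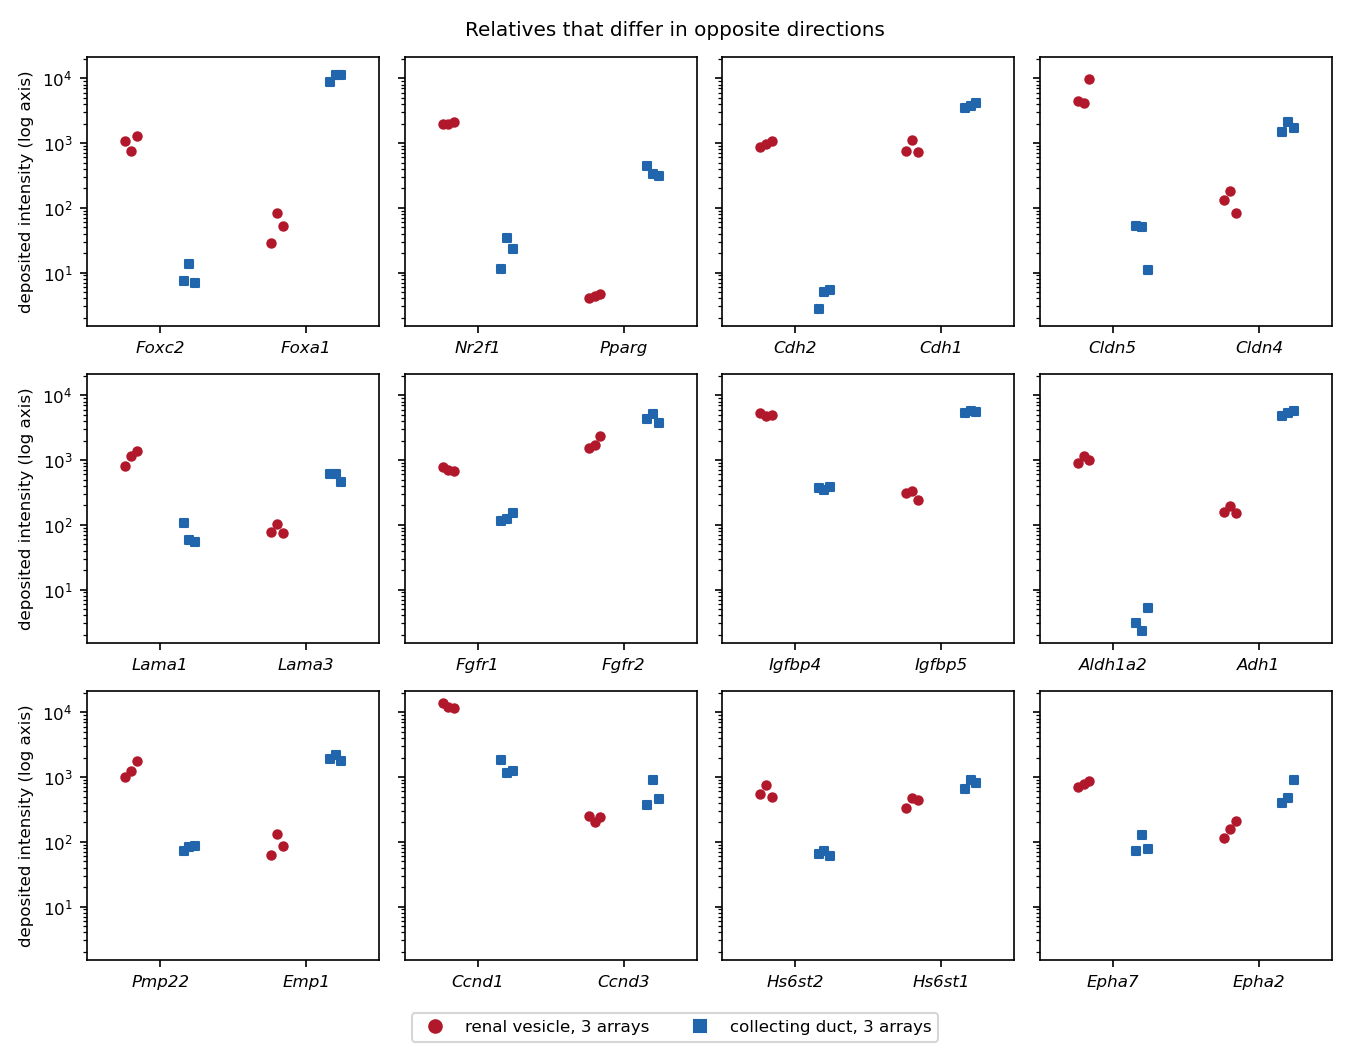
Deposited intensity, on a log axis, of 12 pairs of related genes in the renal vesicle (red circles, 3 arrays) and the collecting duct (blue squares, 3 arrays). In each pair the first gene was higher and the second lower in the renal vesicle, and in none of the 24 genes do the structures overlap; heights of different genes are not comparable.

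The retinoic acid pathway, in which alcohols are oxidised to an acid that binds nuclear receptors, had members on both sides. Rdh10, which makes retinaldehyde, was higher (1.16 ± 0.20, at 3029, 2707 and 2087 in the renal vesicle and 1047, 1144 and 1198 in the collecting duct), as was Aldh1a2, which makes the acid (5.19 ± 0.17). Adh1, an alcohol dehydrogenase, was at 160, 196 and 153 in the renal vesicle and 4732, 5420 and 5737 in the collecting duct and lower by -4.71 ± 0.17 (adjusted p = 2.8e-09). Dhrs3, which turns retinaldehyde back into retinol, was at 223, 240 and 232 in the renal vesicle and 792, 666 and 796 in the collecting duct and also lower (-1.49 ± 0.16). Of the receptors Rxra and Rarg were lower and Rarb and Rxrb did not pass the test. Fabp5, which can carry the acid to the nucleus, was higher by 1.18 ± 0.12, from 15974, 16286 and 14609 in the renal vesicle and 5490, 6392 and 6967 in the collecting duct. In total 3 of the 18 genes were higher and 5 lower.

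In the insulin-like growth factor system the binding proteins differed in direction. Igfbp4 was at 5315, 4870 and 4963 in the renal vesicle and 366, 341 and 390 in the collecting duct, and Igfbp5 at 316, 329 and 243 in the renal vesicle and 5346, 5697 and 5467 in the collecting duct. The differences were 3.66 ± 0.15 and -4.12 ± 0.17 (adjusted p = 8.8e-09 and 9.2e-09), and the structures did not overlap in either gene. Igfbp2 was higher (1.00 ± 0.25) and Igfbp3 did not pass the test. The ligand gene Igf2 was bright everywhere, at 5339, 4981 and 5206 in the renal vesicle and 6165, 8158 and 10041 in the collecting duct, and somewhat lower (-0.71 ± 0.13). The receptors Igf1r, Insr and Igf2r did not pass the test, while Irs1, an adaptor that relays the signal of Igf1r and Insr, was lower (-1.27 ± 0.17). The RNA-binding partners of the ligand mRNA also differed in direction: Igf2bp1 was higher (1.38 ± 0.29) and Igf2bp3 lower (-0.97 ± 0.20).

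In the TGF-beta superfamily all 3 BMP ligand genes measured were higher. Bmp2 was at 1598, 1835 and 1399 in the renal vesicle and 124, 124 and 146 in the collecting duct, Bmp4 at 419, 355 and 344 in the renal vesicle and 44.3, 82.6 and 145 in the collecting duct and Bmp7, which sustains nephron progenitors, at 880, 1041 and 942 in the renal vesicle and 430, 414 and 493 in the collecting duct. Their differences were 3.42 ± 0.21, 1.99 ± 0.26 and 1.09 ± 0.18, and none of the structures overlapped. Ltbp1, which tethers latent TGF-beta to the matrix, was at 820, 814 and 784 in the renal vesicle and 2.39, 23.4 and 5.16 in the collecting duct (4.66 ± 0.21, adjusted p = 1.3e-08), and Tgfbi, a TGF-beta-induced matrix protein, was higher by 2.57 ± 0.29. Of the 8 receptors measured, Acvr2a (-1.32 ± 0.16), Tgfbr2 (-1.01 ± 0.17), Acvr1b (-0.77 ± 0.19) and Bmpr2 (-1.14 ± 0.40) were lower, Acvr2b was higher (1.24 ± 0.32), and Bmpr1a, Tgfbr1 and Acvr1 did not pass the test. The signal carriers Smad1, Smad2, Smad4 and Smad5 did not pass the test. In total 8 of the 31 were higher and 7 lower, and without renal vesicle array 1 the lower count was 3.

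Receptor tyrosine kinases also differed by member. Fgfr1 was at 783, 698 and 684 in the renal vesicle and 114, 122 and 152 in the collecting duct, whereas Fgfr2, the receptor through which FGFs drive ureteric branching, was at 1553, 1713 and 2355 in the renal vesicle and 4302, 5097 and 3712 in the collecting duct. The differences were 2.37 ± 0.16 and -1.28 ± 0.21; Fgfr3 was lower (-0.93 ± 0.20) and Fgfrl1, a decoy-like receptor needed for nephron formation, higher (2.15 ± 0.46). Several genes of the EGF arm were lower: Errfi1, a feedback inhibitor of EGF receptors, was at 902, 1138 and 1267 in the renal vesicle and 6598, 7025 and 9226 in the collecting duct (-2.79 ± 0.16, adjusted p = 9.5e-08), Erbb3 was lower by -2.25 ± 0.28 and the ligand Hbegf by -2.33 ± 0.31, while Egfr itself did not pass the test in its brightest probe set (-0.38 ± 0.24). It was lower by -2.66 in its dimmest probe set and by -1.06 in the mean of its probe sets (limma adjusted p = 1.3e-05 and 0.00056). The MAP kinase feedback genes Spry1, Spry2 and Dusp6 did not pass the test. In this list 7 of 33 genes were higher and 9 lower, and the higher count was 3 without renal vesicle array 1 or the array pair and 4 without renal vesicle array 2 or collecting duct array 2.

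Of 41 Wnt pathway genes 15 were higher and 9 lower. The ligands divided: Wnt5b, a ligand of the β-catenin-independent branch, was at 338, 402 and 733 in the renal vesicle and 5.58, 32.6 and 45.8 in the collecting duct (3.41 ± 0.39), and Wnt7b, a collecting duct ligand needed for the medulla, at 167, 132 and 192 in the renal vesicle and 993, 957 and 977 in the collecting duct (-2.30 ± 0.18). Wnt11 was higher (1.55 ± 0.30), with array 3 lowest at 431, 449 and 178 in the renal vesicle and 104, 92.6 and 124 in the collecting duct, and Wnt10a lower (-1.52 ± 0.27). Wnt4, the ligand of vesicle formation, was at 2445, 2388 and 2196 in the renal vesicle and 1148, 1425 and 1829 in the collecting duct and did not pass the test (0.68 ± 0.29, adjusted p = 0.094). Its renal vesicle arrays lay above those of the collecting duct. Wnt4 passed in some alternatives, at 0.85 with median centring and 0.68 with 6 arrays in the fit (limma adjusted p = 0.034 and 0.044). Wls, which escorts Wnts out of the cell, was lower (-2.07 ± 0.24).

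Of the 7 secreted Wnt inhibitors measured, 5 were higher. Sfrp2 was at 3594, 3096 and 3113 in the renal vesicle and 102, 154 and 194 in the collecting duct, a difference of 4.27 ± 0.19 (adjusted p = 1.3e-08). Frzb was at 257, 221 and 225 in the renal vesicle and 11.1, 14.8 and 13.5 in the collecting duct (2.86 ± 0.26), and Dkk1 at 798, 1253 and 1122 in the renal vesicle and 223, 217 and 300 in the collecting duct (2.03 ± 0.20). Dkk2 and Sfrp1 were higher as well (1.58 ± 0.29 and 0.84 ± 0.17), Sfrp4 did not pass the test, and Dkk3, a divergent relative, was lower (-2.75 ± 0.24). Rspo1, a booster of Wnt signals, was at 425, 393 and 382 in the renal vesicle and 3.35, 24.2 and 40.6 in the collecting duct (3.35 ± 0.26), and Rnf43, the membrane ligase that R-spondins restrain, at 19.4, 48.8 and 17.4 in the renal vesicle and 262, 300 and 293 in the collecting duct (-2.44 ± 0.27). Axin2, a common target of β-catenin, was higher (1.15 ± 0.23). Of the frizzled receptors Fzd3, Fzd4 and Fzd7 were higher by under 1 log2 unit, Fzd6 was lower (-1.66 ± 0.25), and Fzd2, Fzd5 and Fzd8 did not pass the test.

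Of 8 hedgehog genes 3 were higher and 0 lower (37.5% changed, against 31.5% of all genes). Gas1, a co-receptor, was at 2206, 2261 and 2503 in the renal vesicle and 91.5, 138 and 169 in the collecting duct (3.93 ± 0.18, adjusted p = 1.4e-08), and Gli2, a transcription factor of the pathway, at 272, 615 and 257 in the renal vesicle and 72, 61.7 and 9.05 in the collecting duct (2.61 ± 0.39). Ptch1, the receptor and a target of the pathway, was at 3968, 4256 and 4048 in the renal vesicle and 2620, 2660 and 2377 in the collecting duct (0.63 ± 0.13), and Smo and Sufu did not pass the test. At an unadjusted p under 0.05 the lower count was also 0 with limma.

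**Figure D4:**
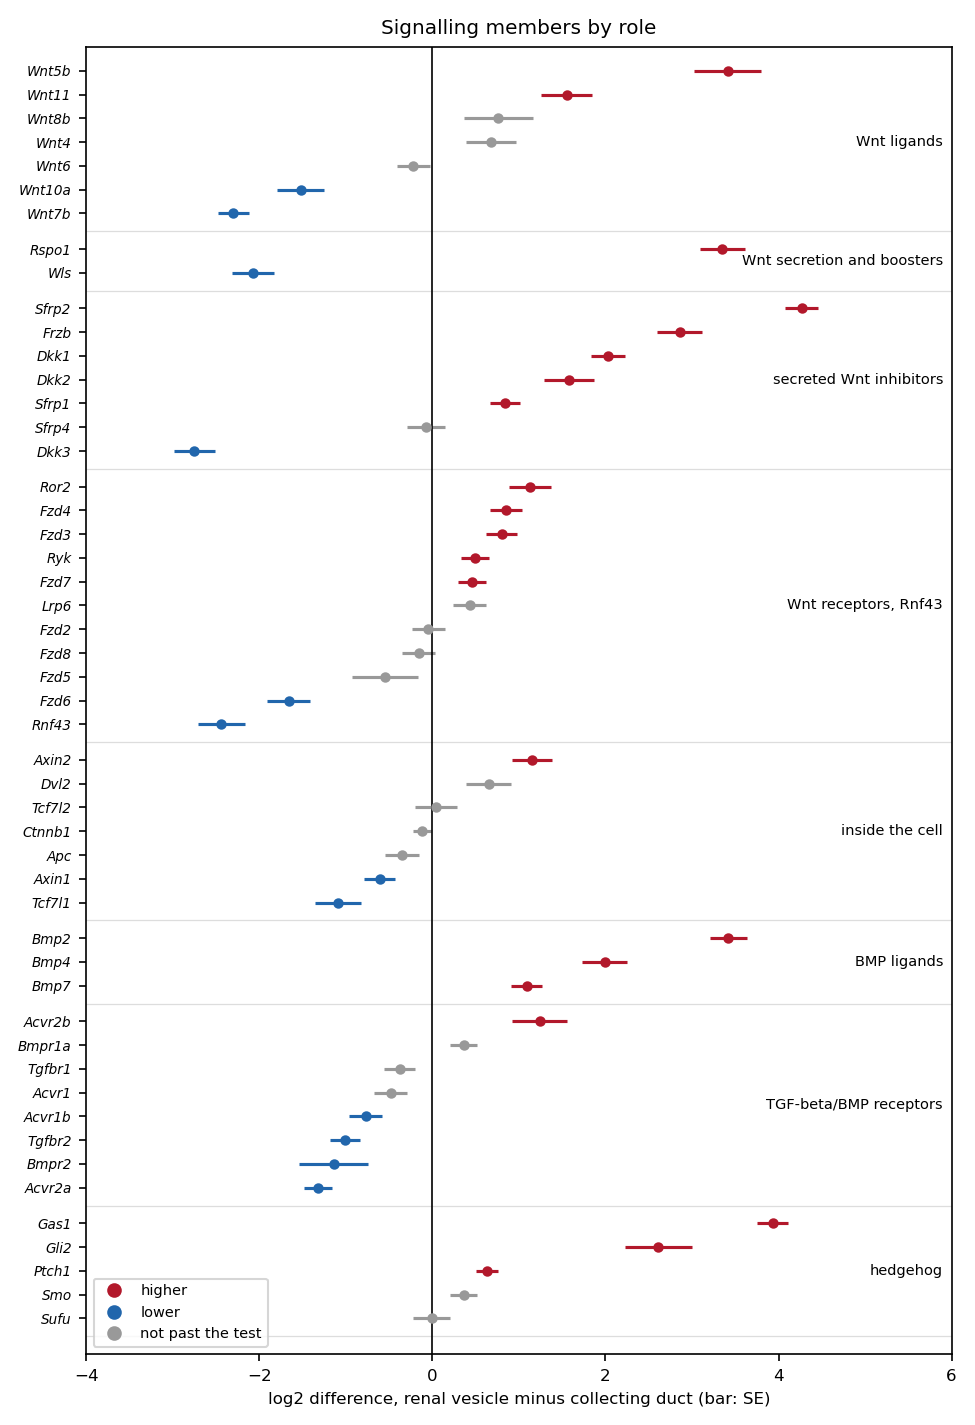
Log2 difference, renal vesicle minus collecting duct, with its SE, for 50 Wnt, BMP, TGF-beta and hedgehog genes grouped by role (red higher, blue lower, grey not past the test). The 3 BMP ligands lie to the right and 4 of the 8 receptors to the left, and 5 of the 7 secreted Wnt inhibitors lie to the right.

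Guidance genes, known from axons and used by kidney cells to place the ureteric bud, were balanced at 11 higher and 11 lower of 47. The secreted repellent Slit2 was at 4197, 3607 and 4186 in the renal vesicle and 1023, 1228 and 1033 in the collecting duct (1.82 ± 0.16), and its receptor Robo1 at 882, 1119 and 1405 in the renal vesicle and 389, 439 and 366 in the collecting duct (1.47 ± 0.21), so ligand and receptor were both higher. Nrp1, a receptor for semaphorins and VEGF, was at 1224, 1709 and 2723 in the renal vesicle and 232, 137 and 134 in the collecting duct (3.32 ± 0.28) and Epha7 at 701, 772 and 886 in the renal vesicle and 71.1, 129 and 77.4 in the collecting duct (2.91 ± 0.24). Unc5b, a netrin receptor, was lower, at 318, 345 and 431 in the renal vesicle and 1850, 1613 and 1442 in the collecting duct (-2.02 ± 0.17), while Unc5c was higher (1.46 ± 0.26). The semaphorins split: Sema4a and Sema4b were lower (-1.34 ± 0.23 and -1.34 ± 0.28) and Sema5a was higher (2.13 ± 0.25). Srgap3, a Slit-Robo effector, and the ephrin receptors Epha1 and Epha2 were lower (-1.54 ± 0.19, -1.25 ± 0.30 and -1.58 ± 0.33).

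Among 24 cytokine and complement genes 5 were higher and 8 lower. Cxcl12, a chemokine that guides vessels, was at 417, 490 and 876 in the renal vesicle and 93.6, 71.6 and 106 in the collecting duct (2.48 ± 0.25), and Tnfrsf19, a TNF receptor relative, at 448, 456 and 547 in the renal vesicle and 62, 68.6 and 43.6 in the collecting duct (2.72 ± 0.22). Il18 and the receptor chain Il10rb were lower (-1.24 ± 0.24 and -1.77 ± 0.24). The lower count was 5 without the array pair.

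Of 15 cadherin and catenin genes, which hold cells together, 5 were higher and 3 lower. Cdh2, N-cadherin, was at 886, 974 and 1068 in the renal vesicle and 2.77, 5.02 and 5.41 in the collecting duct, and Cdh11, a mesenchymal cadherin, at 997, 1046 and 1496 in the renal vesicle and 41.3, 27.4 and 55 in the collecting duct. Cdh1, E-cadherin, was at 755, 1111 and 728 in the renal vesicle and 3503, 3725 and 4229 in the collecting duct, present in both structures, and Cdh17 at 7.3, 12.8 and 11.4 in the renal vesicle and 240, 248 and 189 in the collecting duct. The differences were 5.10 ± 0.20, 4.26 ± 0.21, -2.10 ± 0.24 and -2.68 ± 0.24, and Cdh16, the kidney cadherin, differed by -2.58 ± 0.33. Cdh4 and Cdh6 were higher by 1.10 ± 0.19 and 1.13 ± 0.27. The catenins Ctnnb1, Ctnna1 and Jup, which link cadherins to the cytoskeleton, did not pass the test. Without renal vesicle array 1 the higher count of the 15 genes was 3.

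Of 25 tight junction genes 12 were lower and 5 higher. Cldn5, known best from endothelium, was at 4449, 4178 and 9700 in the renal vesicle and 53.1, 50.1 and 11 in the collecting duct (6.51 ± 0.33, adjusted p = 3.8e-08). Of the 18 endothelial genes tested, Cldn5 included, 3 were higher and 2 lower (27.8% changed, against 31.5% of all genes). Cdh5, Kdr and Emcn did not pass the test and were at 130 or less on every array. The higher endothelial count was 5 without renal vesicle array 3 or collecting duct array 3. The lower one was 0 without renal vesicle array 3. It was 1 without renal vesicle array 1, collecting duct array 1 or 3 or the array pair. Cldn1 and Cldn2 were higher by 1.71 ± 0.35 and 1.78 ± 0.38. Cldn4, Cldn7 and Cldn23, barrier claudins, were lower by -3.43 ± 0.28, -3.39 ± 0.37 and -4.53 ± 0.28, and Ocln, occludin, by -2.98 ± 0.36. Cldn4 stood at 134, 182 and 83.5 in the renal vesicle and 1489, 2121 and 1713 in the collecting duct, without overlap. Cldn8 was lower by -4.29 ± 0.74, with the wide spread of the renal vesicle arrays described above. Tjp1, the scaffold ZO-1, did not pass the test. Of the 25 genes 2 were kept through the collecting duct arrays alone, and under the stricter filter 6 genes were lower.

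Of 19 desmosome and intermediate filament genes 14 were lower and 2 higher, with a median of -1.61. The higher genes were Vim, vimentin, at 941, 1629 and 2286 in the renal vesicle and 268, 201 and 465 in the collecting duct (2.29 ± 0.32), and Nes, nestin (1.01 ± 0.24, of opposite sign in its dimmest probe set), filament proteins of mesenchymal and progenitor cells. Perp, a desmosome-associated membrane protein, was at 96.7, 94.9 and 147 in the renal vesicle and 4392, 3593 and 3097 in the collecting duct (-4.67 ± 0.20), and Dsc2, a desmosomal cadherin, at 120, 98.7 and 61.7 in the renal vesicle and 1878, 1553 and 856 in the collecting duct (-3.45 ± 0.30). Krt7, Krt8 and Krt18, the simple-epithelium keratins, were lower by -4.80 ± 0.24, -4.49 ± 0.32 and -3.91 ± 0.29. The plaque proteins Ppl and Pkp2 were lower (-2.40 ± 0.21 and -1.61 ± 0.15), while Dsp, the plaque protein that grips the filaments, did not pass the test (-0.45 ± 0.23). Dsp was lower by -0.76 in its dimmest probe set, by -0.60 in the mean of its probe sets and by -0.70 without collecting duct array 1 (limma adjusted p = 0.012, 0.041 and 0.028). Without the filter 15 of 31 were lower and the median was -0.82, and under the stricter filter 7 were lower. Of the 19 genes 2 were kept through the collecting duct arrays alone.

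The basement membrane differed by chain. Of 57 matrix genes 18 were higher and 9 lower. Lama1, the first laminin α chain of kidney tubules, was at 808, 1164 and 1378 in the renal vesicle and 105, 57.6 and 53.8 in the collecting duct (3.64 ± 0.26), with Lamc1 (1.23 ± 0.19) and Lama2 (1.23 ± 0.27) also higher. Lama3 and Lamb3, 2 chains of the laminin under stratified epithelia, were at 77, 103 and 76 in the renal vesicle and 602, 600 and 463 in the collecting duct and at 21.5, 4.42 and 28.9 in the renal vesicle and 577, 512 and 311 in the collecting duct. These differed by -2.25 ± 0.19 and -3.38 ± 0.30, and Lama5 by -1.02 ± 0.19. Col4a1 and Col4a2, which assemble together, were higher by 2.19 ± 0.19 and 2.14 ± 0.16, whereas Col4a5, a chain of the later network, was lower (-1.84 ± 0.21). The linker proteins Nid1 and Nid2 were higher by 2.71 ± 0.19 and 2.97 ± 0.16 (adjusted p = 5.5e-07 and 6.6e-08), and Col18a1, the source of endostatin, was lower (-1.90 ± 0.18). Fbn2, an embryonic microfibril protein, was at 886, 895 and 706 in the renal vesicle and 13.7, 33.9 and 40 in the collecting duct (4.10 ± 0.20). The stromal collagens Col3a1 and Col1a2 were higher by 2.26 ± 0.43 and 1.55 ± 0.34, with Col3a1 at 156, 590 and 196 in the renal vesicle and 70.9, 12.4 and 57.4 in the collecting duct, and Col1a1 did not pass the test.

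Of 13 genes of integrins, the receptors of this matrix, and of their partners, 5 changed (38.5%, against 31.5% of all genes). Fermt2, which activates integrins, and Itga6 were higher (1.48 ± 0.19 and 0.59 ± 0.16), and Itga3 and Itgb5 were lower (-0.65 ± 0.17 and -1.02 ± 0.32) with overlapping arrays for Itgb5. Npnt, nephronectin, the integrin ligand through which the ureteric bud acts on mesenchyme, was at 2473, 2835 and 2583 in the renal vesicle and 6579, 5705 and 4833 in the collecting duct (-1.21 ± 0.18). Itgb1, the shared β chain, was at 836, 712 and 928 in the renal vesicle and 820, 829 and 614 in the collecting duct and did not pass the test.

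Of 33 proteoglycan genes 11 were higher and 7 lower, or 4 lower without the array pair. Gpc3, a glypican that restrains growth, was at 1707, 1819 and 2106 in the renal vesicle and 323, 376 and 428 in the collecting duct (2.25 ± 0.18), and Vcan, versican, at 4681, 4498 and 5052 in the renal vesicle and 1028, 1231 and 920 in the collecting duct (2.09 ± 0.21). Both Sdc2 and Sdc4 are syndecans, and they differed in direction (1.87 ± 0.31 and -1.23 ± 0.18). The enzymes that place 6-O-sulfate on heparan sulfate did so too: Hs6st2 was at 555, 757 and 501 in the renal vesicle and 65, 72.2 and 61 in the collecting duct (2.87 ± 0.22, adjusted p = 1.3e-06) and Hs6st1 at 334, 468 and 437 in the renal vesicle and 659, 904 and 798 in the collecting duct (-0.82 ± 0.20, adjusted p = 0.007). Ext1 was higher and its partner Ext2 lower (0.83 ± 0.17 and -0.54 ± 0.18), and Chst1 and Chst2, sulfotransferases for other chains, were higher by 2.91 ± 0.26 and 2.12 ± 0.35.

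Proteases were described in 2 lists. Of 26 metalloproteinase genes 7 were higher and 1 lower (30.8% changed, against 31.5% of all genes). Mmp2, gelatinase A, was at 2758, 2740 and 3324 in the renal vesicle and 105, 78.2 and 172 in the collecting duct (4.45 ± 0.22, adjusted p = 3.5e-08), and Enpep, the angiotensin-cleaving aminopeptidase A, at 1597, 1945 and 3974 in the renal vesicle and 71.1, 114 and 109 in the collecting duct (4.30 ± 0.27). Mmp14, which activates Mmp2, and the inhibitors Timp2 and Timp3 did not pass the test. Of 42 serine and cysteine protease genes 5 were higher and 17 lower (median -0.39). Plat, tissue plasminogen activator, was at 1104, 1221 and 3054 in the renal vesicle and 45.9, 64.8 and 109 in the collecting duct (4.17 ± 0.32), with renal vesicle array 3 highest, and Prss23 was higher by 4.52 ± 0.24.

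The lower group included proteases of the epithelial surface. Tmprss2, a membrane serine protease, was at 250, 256 and 153 in the renal vesicle and 4850, 4508 and 4913 in the collecting duct (-4.27 ± 0.21, adjusted p = 3.1e-08). St14, matriptase, was lower by -2.21 ± 0.27 and Prss8, prostasin, by -2.40 ± 0.29. Their inhibitors were lower too: Spint1 was at 278, 343 and 231 in the renal vesicle and 1816, 2105 and 2216 in the collecting duct (-2.67 ± 0.18) and Spint2 at 1516, 1763 and 1594 in the renal vesicle and 4392, 5889 and 7259 in the collecting duct (-1.83 ± 0.17). Scnn1a, Scnn1b and Scnn1g, subunits of the sodium channel that prostasin can activate, were lower by -1.46 ± 0.23, -1.61 ± 0.24 and -4.52 ± 0.42. Of the 42 genes 11 were lower without the array pair.

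Annexins and S100 proteins, which bind calcium and membranes, were the list with the highest share of lower members, at 14 of 17, with 1 higher (median -2.16). Anxa2 was at 282, 429 and 714 in the renal vesicle and 4182, 3703 and 3020 in the collecting duct, Anxa3 at 282, 286 and 336 in the renal vesicle and 2928, 2470 and 1468 in the collecting duct and Anxa4 at 473, 577 and 343 in the renal vesicle and 3439, 3164 and 2292 in the collecting duct, and in none did the structures overlap. They differed by -2.92 ± 0.26, -2.72 ± 0.22 and -2.59 ± 0.20 (adjusted p = 4.3e-06, 1.9e-06 and 1.4e-06). Ahnak, the giant scaffold that binds Anxa2 with S100a10, was lower by -4.34 ± 0.31 and S100a10 by -1.99 ± 0.34. The higher gene, S100pbp, encodes a binding partner and is no S100 protein itself. Of the 17 genes 3 were kept through the collecting duct arrays alone. Over the 26 members on the array, without the filter, 14 were lower and the median was -0.98.

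Tetraspanins, galectins and mucins were lower for 12 of 35 and higher for 3 (median -0.26). Tspan4 was at 190, 126 and 185 in the renal vesicle and 10.9, 16.1 and 11.4 in the collecting duct (2.44 ± 0.21) and Tspan8 at 24.5, 38.3 and 167 in the renal vesicle and 4689, 5459 and 5187 in the collecting duct (-5.86 ± 0.38). Pmp22 and Emp1 belong to the same family of small membrane proteins and were at 999, 1241 and 1779 in the renal vesicle and 72, 82.4 and 84.8 in the collecting duct and at 62.1, 134 and 84.8 in the renal vesicle and 1916, 2176 and 1753 in the collecting duct, differences of 3.74 ± 0.22 and -3.98 ± 0.23. Epcam, the epithelial adhesion molecule, was lower by -2.26 ± 0.29.

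Channels and pumps were balanced, with 14 higher and 13 lower of 43. Gja1, connexin 43, was at 14751, 15534 and 21295 in the renal vesicle and 4924, 6190 and 6670 in the collecting duct (1.38 ± 0.13, adjusted p = 5.7e-06), and Gjc1, connexin 45, at 1117, 1043 and 1140 in the renal vesicle and 322, 292 and 450 in the collecting duct (1.63 ± 0.18). Carbonic anhydrases, which supply acid and bicarbonate, were higher for Car4 (3.08 ± 0.22), Car14 (2.52 ± 0.38) and Car12 (0.99 ± 0.18) and lower for Car8 (-1.98 ± 0.35), which lacks the enzyme activity. Car4 stood at 357, 372 and 409 in the renal vesicle and 16.9, 23.5 and 42.2 in the collecting duct. Regulators of the sodium pump split: Fxyd6 was higher (2.11 ± 0.23), and Fxyd3 and Fxyd4 were lower (-3.59 ± 0.37 and -2.86 ± 0.31), as was the pump subunit Atp1b1 (-1.87 ± 0.18), while Atp1b3 was higher (0.63 ± 0.16). Aqp3, the water channel of the basolateral duct membrane, was at 60.6, 61.9 and 95.6 in the renal vesicle and 634, 640 and 607 in the collecting duct (-2.63 ± 0.21). Without the array pair the counts were 9 and 7. The higher count was 8 without renal vesicle array 1 and 7 without array 2, and the lower count was 8 without collecting duct array 2 or 3.

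Of 59 solute carriers 11 were higher and 15 lower. Slc40a1, ferroportin, the only known cellular iron exporter, was at 281, 329 and 301 in the renal vesicle and 5157, 6149 and 6011 in the collecting duct (-4.12 ± 0.20, adjusted p = 2.5e-08). Slc26a2, a sulfate transporter, was at 408, 393 and 403 in the renal vesicle and 3402, 3759 and 2383 in the collecting duct (-2.85 ± 0.19), and Slc15a2, a peptide transporter, at 93, 166 and 232 in the renal vesicle and 1537, 1715 and 1925 in the collecting duct (-3.18 ± 0.24). Slc2a1, the ubiquitous glucose transporter, was lower (-0.71 ± 0.24) with overlapping arrays, and Slc2a2, the glucose transporter of proximal tubule and liver, was higher, at 306, 210 and 330 in the renal vesicle and 11.4, 20.6 and 68.3 in the collecting duct (2.63 ± 0.57). Slc7a5, an importer of large amino acids, and Slc16a1, a lactate carrier, were higher by 1.89 ± 0.33 and 1.59 ± 0.21. The higher count was 5 without renal vesicle array 1, 7 without array 2 and 6 without the array pair.

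Detoxifying enzymes were lower for 23 of 54 genes and higher for 5 (median -0.43). Gsta4, a glutathione transferase for lipid aldehydes, was at 517, 334 and 361 in the renal vesicle and 2640, 2228 and 1899 in the collecting duct (-2.38 ± 0.24), and Ugt2b34, a glucuronosyl transferase, at 18.5, 35.8 and 31.5 in the renal vesicle and 954, 1010 and 866 in the collecting duct (-4.06 ± 0.46). Nfe2l2, the factor NRF2 that drives many of these genes, was at 652, 899 and 788 in the renal vesicle and 3824, 3066 and 1485 in the collecting duct (-1.70 ± 0.28, adjusted p = 7e-04), and its targets Nqo1 and Gclc were lower by -1.19 ± 0.28 and -0.77 ± 0.15, while Gclm, Txnrd1 and Gsr did not pass the test. Keap1, the inhibitor of NRF2, was lower as well (-0.67 ± 0.15). Cyp1b1 stood against the list at 1387, 1648 and 2250 in the renal vesicle and 85.8, 86.4 and 148 in the collecting duct (3.81 ± 0.22, adjusted p = 1.1e-07), while Ahr, its usual activator, was lower. Abcg2, an efflux pump of stem-like cells, and Aldh2 were higher by 1.36 ± 0.16 and 1.91 ± 0.17. Of the 54 genes 5 were kept through the collecting duct arrays alone, and under the stricter filter 15 were lower.

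In lipid metabolism 11 of 53 genes were lower and 5 higher, or 3 higher without renal vesicle array 2. The changed share was 30.2%, against 31.5% of all genes. Members of fatty acid oxidation were among the lower: Cpt1a, the gate of fatty acid entry into mitochondria, differed by -1.21 ± 0.19, and the dehydrogenases Acadvl, Acadl and Acadm by -1.21 ± 0.16, -1.29 ± 0.18 and -0.84 ± 0.26. Acadvl was at 499, 519 and 653 in the renal vesicle and 1407, 1352 and 1339 in the collecting duct. Lpl, lipoprotein lipase, was higher (2.78 ± 0.33) but spread over the renal vesicle arrays at 1169, 818 and 358 in the renal vesicle and 71.6, 86.6 and 112 in the collecting duct. The sterol enzymes Hmgcs1, Sqle, Cyp51 and Dhcr7 did not pass the test.

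Of 28 genes of serine, glycine, one-carbon and nucleotide synthesis 10 were higher and 0 lower (median 0.44). The changed share was 35.7%, against 31.5% of all genes. Cad, which starts pyrimidine synthesis, was at 1195, 1336 and 1203 in the renal vesicle and 358, 383 and 487 in the collecting duct (1.57 ± 0.17, adjusted p = 2.2e-05), Ctps, which makes CTP, at 6765, 6541 and 5726 in the renal vesicle and 2336, 2403 and 3014 in the collecting duct (1.22 ± 0.15), and Ppat, which starts purine synthesis, at 1077, 1078 and 1137 in the renal vesicle and 495, 432 and 276 in the collecting duct (1.48 ± 0.21). None of these overlapped. Gldc and Gcsh, parts of the glycine cleavage system, were higher by 1.38 ± 0.22 and 0.89 ± 0.20, and Mthfd2 and Shmt1 of the folate cycle by 0.98 ± 0.19 and 0.75 ± 0.21. Phgdh, the first enzyme of serine synthesis, and Shmt2 did not pass the test. At an unadjusted p under 0.05 the lower count was also 0 with limma.

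Of 36 genes of glycolysis and the response to low oxygen 13 were lower and 3 higher. The lower group included Egln3, an oxygen sensor that hypoxia itself induces, at 107, 193 and 170 in the renal vesicle and 1562, 1395 and 1069 in the collecting duct (-2.82 ± 0.19, adjusted p = 5.4e-07), Pdk1, which keeps pyruvate out of mitochondria, at 368, 340 and 222 in the renal vesicle and 1997, 2283 and 1572 in the collecting duct (-2.51 ± 0.28), and Bnip3, a mitophagy receptor, at 557, 1193 and 624 in the renal vesicle and 5898, 5270 and 3977 in the collecting duct (-2.74 ± 0.34). Ddit4 and the glycolytic Aldoa and Hk1 were lower by -2.08 ± 0.32, -0.93 ± 0.18 and -1.55 ± 0.23. Vegfa, Ldha, Pgk1 and Hif1a did not pass the test, so the list did not move as one. Without renal vesicle array 2 or 3 or the array pair the higher count was 1. Mitochondrial respiration differed least of all lists by share: 1 of 76 genes was higher and 4 were lower, against 31.5% of all genes changed. Ppargc1a, a coactivator of mitochondrial genes, was among the lower (-1.18 ± 0.28). Under median centring 12 of the 76 were higher. The higher count was 2 without renal vesicle array 3, 4 without collecting duct array 1 and 3 without collecting duct array 3, and the call was lost without renal vesicle array 1 or 2 or the array pair. The lower count was 2 without renal vesicle array 2 or collecting duct array 2 and 1 without the array pair.

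The core hypoxia response element, ACGTG on either strand, was looked for in promoter windows from 250 bases before to 50 after the RefSeq start sites (GRCm38.p6), which 6506 of the 7998 tested genes had. It was found for 23 of 32 genes of this list with a window (71.9%), and for 7 of the 12 lower ones (58.3%), against 29.9% of all tested genes with a window. Of the 3 higher ones 1 held it (33.3%), as did 17 of 34 immediate-early and stress genes (50%). A match is a description of the letters and not of a bound site. The windows of the 3 lower genes with the smallest adjusted p and a match before the start site are shown as examples of such matches, 5′ to 3′ on the gene's strand with matches in capitals. They lie at chr12:54204065-54204124 (minus strand) for Egln3, chr7:138909581-138909640 (minus) for Bnip3 and chr10:59951925-59951984 (minus) for Ddit4.
Egln3: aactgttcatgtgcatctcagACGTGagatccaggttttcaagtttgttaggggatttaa
Bnip3: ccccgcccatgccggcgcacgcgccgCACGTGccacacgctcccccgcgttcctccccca
Ddit4: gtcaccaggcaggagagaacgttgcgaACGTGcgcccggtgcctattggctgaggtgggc
The Bnip3 window holds overlapping matches on both strands.

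Of 54 DNA replication and repair genes 34 were higher and 0 lower, with a median of 0.66 beside 0.01 for all genes. Of the 34, 12 were at least 2-fold higher and 0 at least 8-fold. No gene was lower at an unadjusted p under 0.05 either (0 genes, limma). Dut, which keeps uracil out of DNA, was at 6344, 5629 and 4508 in the renal vesicle and 1029, 1077 and 978 in the collecting duct (2.33 ± 0.16, adjusted p = 5.4e-07), Rrm2, which makes deoxynucleotides, at 12937, 12703 and 15882 in the renal vesicle and 4763, 5444 and 6111 in the collecting duct (1.22 ± 0.11), and Mcm7, part of the replicative helicase, at 12842, 11740 and 14032 in the renal vesicle and 4729, 5089 and 6588 in the collecting duct (1.13 ± 0.13). Every renal vesicle array lay above every collecting duct array for these 3. Pole, a replicative polymerase, was higher by 1.40 ± 0.17, and of the other helicase genes Mcm3, Mcm4, Mcm5 and Mcm6 were higher by 1.12 ± 0.19, 0.78 ± 0.18, 1.39 ± 0.24 and 0.62 ± 0.18. Mcm2 did not pass the test in its brightest probe set (-0.41 ± 0.21) but was higher by 0.86 in its dimmest (limma adjusted p = 0.0031). Pcna, the sliding clamp, was at 11559, 9692 and 6701 in the renal vesicle and 6731, 6017 and 2673 in the collecting duct and did not pass (0.75 ± 0.32, adjusted p = 0.1). Pcna passed in some alternatives, at 0.98 without renal vesicle array 3 and 1.09 with median centring (limma adjusted p = 0.049 and 0.025). The higher count was 21 without the array pair.

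Of 50 mitosis genes 32 were higher and 1 lower (median 0.74). Plk4, which duplicates centrioles, was at 5463, 5426 and 6249 in the renal vesicle and 2771, 2798 and 2110 in the collecting duct (1.06 ± 0.14), Aurkb, the kinase of chromosome attachment, at 787, 777 and 687 in the renal vesicle and 334, 400 and 374 in the collecting duct (1.04 ± 0.16), and Cenpa, the histone of centromeres, at 1570, 1670 and 1283 in the renal vesicle and 686, 629 and 718 in the collecting duct (1.11 ± 0.18). The checkpoint kinase Bub1 was higher by 1.92 ± 0.42, and Mki67, the common proliferation marker, by 0.91 ± 0.26. Cdk1 and Cenpf did not pass the test, and the lower gene was Cdc25b, a phosphatase that activates cyclin-dependent kinases (-0.56 ± 0.16), a call lost without renal vesicle array 2 or 3, collecting duct array 2 or the array pair. The higher count was 21 without the array pair.

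The promoter windows of these lists were searched for E2F motifs (TTTCCCGC or TTTGGCGC) and for the CCAAT box (CCAAT), on both strands. An E2F motif was found in 13 of 46 replication genes with a window (28.3%), in 1 of 41 mitosis genes (2.44%) and in 3.61% of all tested genes. Among the higher replication genes it was found in 6 of 28 (21.4%). A CCAAT box was found in 30 of 41 mitosis genes (73.2%), in 27 of 46 replication genes (58.7%) and in 42.9% of all tested genes. Neither share was tested, and genes without a match lack only these letters in these windows. Windows of 60 bases are shown for 3 higher genes per list, those of smallest adjusted p with a match before the start site, at chr5:138172015-138172074 (minus strand) for Mcm7, chr8:75109334-75109393 (plus) for Mcm5, chr1:128359719-128359778 (minus) for Mcm6, chr5:30666773-30666832 (plus) for Cenpa, chr6:125191602-125191661 (minus) for Ncapd2 and chr11:40733452-40733511 (minus) for Hmmr. In choosing the windows shown here, above and below, matches close to the start site and genes on 1 chromosome were passed over. Capitals mark E2F motifs in the first 3 windows and CCAAT boxes, read on either strand, in the others.
Mcm7: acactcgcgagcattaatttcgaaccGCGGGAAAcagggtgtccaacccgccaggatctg
Mcm5: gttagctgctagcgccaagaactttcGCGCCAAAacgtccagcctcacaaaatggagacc
Mcm6: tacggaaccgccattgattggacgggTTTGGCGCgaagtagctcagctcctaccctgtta
Cenpa: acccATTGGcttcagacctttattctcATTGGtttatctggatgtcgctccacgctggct
Ncapd2: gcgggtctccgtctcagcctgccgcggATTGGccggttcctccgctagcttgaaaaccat
Hmmr: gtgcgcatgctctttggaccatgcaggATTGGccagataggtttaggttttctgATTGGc
In these windows Cenpa and Hmmr carry 2 CCAAT boxes each, and Ncapd2, a condensin subunit that was higher by 1.22 ± 0.22, carries 1. Hmmr, a spindle-associated protein, was higher by 0.85 ± 0.17.

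Regulators of the G1 phase were split at 8 higher and 9 lower of 33, or 5 higher without renal vesicle array 1 or the array pair. Ccnd1, the cyclin D of the ureteric tip and of many progenitors, was at 13876, 12288 and 11676 in the renal vesicle and 1831, 1139 and 1239 in the collecting duct (3.10 ± 0.17, adjusted p = 9.5e-08). Its relatives Ccnd2 and Ccnd3 were lower, Ccnd2 at 3165, 2784 and 2185 in the renal vesicle and 4415, 4574 and 6864 in the collecting duct (-0.97 ± 0.19) and Ccnd3 at 247, 206 and 240 in the renal vesicle and 375, 914 and 452 in the collecting duct (-1.03 ± 0.28). Cdk4, the kinase partner of all 3, was higher (0.92 ± 0.16). The inhibitors Cdkn1a and Cdkn2b were lower by -1.35 ± 0.26 and -1.90 ± 0.29 and the antiproliferative Btg2 by -2.92 ± 0.17, while Cdkn1b and Cdkn1c did not pass the test. Cdkn1c was lower by -0.72 without renal vesicle array 3 and by -0.62 without the array pair (limma adjusted p = 0.0071 and 0.033).

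**Figure D5:**
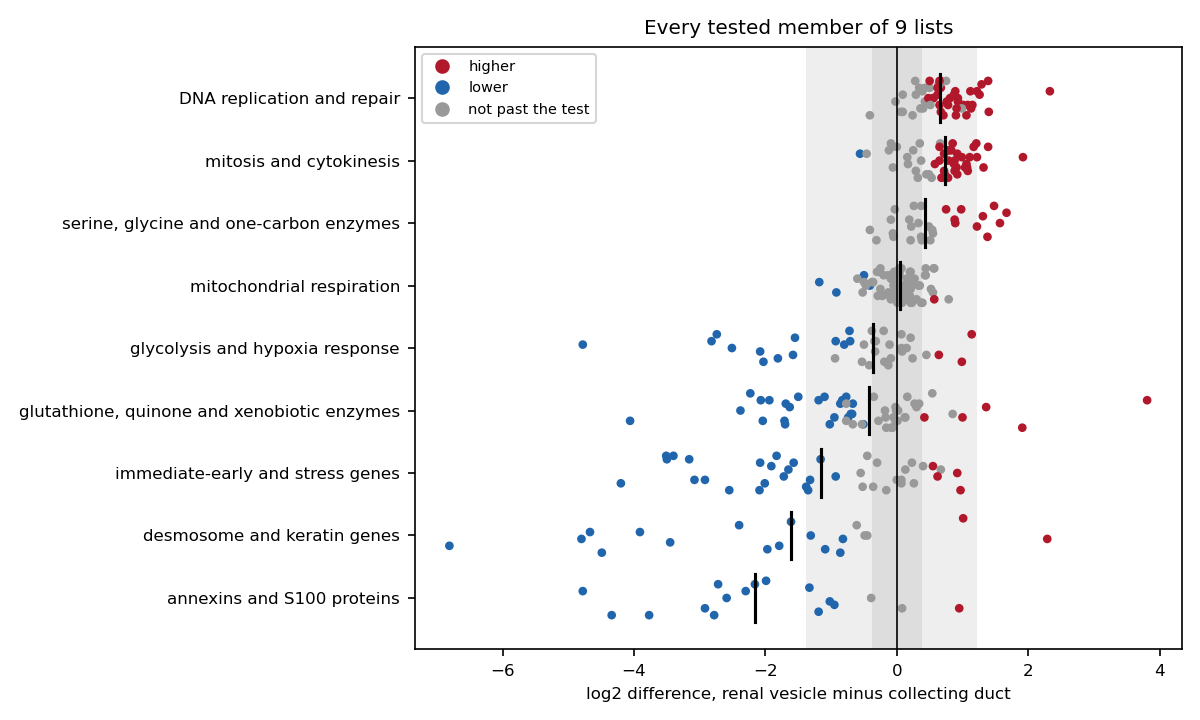
Log2 difference, renal vesicle minus collecting duct, of every tested member of 9 lists (points, red higher, blue lower, grey not past the test), with the list's median as a thick line. Shading spans 25 to 75% and 5 to 95% of all genes tested; replication and mitosis genes lie in a narrow band to the right, mitochondrial genes around 0, and annexins and keratins spread widely to the left.

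Among 61 chromatin genes 19 were higher and 5 lower (39.3% changed, against 31.5% of all genes). Kdm2b, a histone demethylase that recruits Polycomb to CpG islands, was at 7563, 8220 and 7985 in the renal vesicle and 1121, 1103 and 1358 in the collecting duct (2.66 ± 0.16, adjusted p = 1.7e-07), and Hmga2, an architectural protein of embryonic cells, at 5052, 4653 and 3186 in the renal vesicle and 650, 415 and 462 in the collecting duct (2.99 ± 0.23). The Polycomb genes Bmi1, Jarid2, Phc1 and Eed were higher by 1.32 ± 0.24, 0.98 ± 0.17, 0.65 ± 0.16 and 0.57 ± 0.16, while Ezh2 and Suz12 did not pass the test. Suv39h2, a heterochromatin methyltransferase, and Cbx1, a reader of its mark, were higher by 1.71 ± 0.26 and 1.11 ± 0.18. The DNA methyltransferases Dnmt1, Dnmt3a and Dnmt3b did not pass the test in their brightest probe sets, although probe sets of Dnmt3a changed in both directions. Without the array pair 12 genes were higher, and the lower count was 3 without it, renal vesicle array 1 or 2 or collecting duct array 2.

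Of 53 RNA-binding and splicing genes 20 were higher and 7 lower. Esrp1 and Esrp2, splicing factors of epithelial cells that select among other things the epithelial form of Fgfr2, were lower. Esrp2 was at 87.9, 48.2 and 132 in the renal vesicle and 970, 966 and 1191 in the collecting duct (-3.16 ± 0.32, adjusted p = 1.2e-05), and Esrp1 at 418, 699 and 7.44 in the renal vesicle and 3997, 3618 and 2915 in the collecting duct (-3.98 ± 0.82), with renal vesicle array 3 far below the other two. Khdrbs3, a splicing factor known from brain and testis, was at 524, 537 and 462 in the renal vesicle and 83.5, 86.3 and 117 in the collecting duct (2.25 ± 0.22). The SR proteins Srsf1, Srsf3, Srsf6 and Srsf10 were higher by 0.61 to 0.75, though for Srsf1 not in its dimmest probe set. Of the 53 genes 8 were higher without the array pair, 9 without renal vesicle array 2 and 13 without renal vesicle array 3.

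Imprinted genes were lower for 12 of 32 and higher for 4. Mest, expressed from the paternal allele in mesodermal tissue, was at 2145, 2485 and 2230 in the renal vesicle and 285, 345 and 258 in the collecting duct (2.86 ± 0.16, adjusted p = 1.1e-07). Meg3 and Rian, neighbouring maternally expressed noncoding RNAs, were at 564, 1120 and 967 in the renal vesicle and 7997, 10463 and 16466 in the collecting duct and at 57.1, 93.7 and 120 in the renal vesicle and 1098, 1289 and 1142 in the collecting duct, and both were lower, by -3.69 ± 0.28 and -3.30 ± 0.22. Dlk1, a paternally expressed gene of the same cluster, did not pass the test (-0.06 ± 0.30). The paternally expressed growth regulators Peg3 and Plagl1 were lower by -1.22 ± 0.13 and -1.19 ± 0.18. The maternally expressed Cdkn1c and Grb10 did not pass the test, apart from the alternatives given above for Cdkn1c.

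Genes of the actin cytoskeleton were found among both the higher and the lower genes. Tmsb4x, which holds actin monomers, was at 1730, 1785 and 711 in the renal vesicle and 7982, 7658 and 10328 in the collecting duct (-2.74 ± 0.27), and Pdlim1, a scaffold on actin bundles, at 100, 186 and 34.1 in the renal vesicle and 1698, 2434 and 1834 in the collecting duct (-3.99 ± 0.37). Both were lowest in renal vesicle array 3. Tropomyosins differed: Tpm2 was higher (2.96 ± 0.35, though not in its dimmest probe set) and Tpm1 and Tpm3 were lower by under 1 log2 unit. Of the proteins that join membranes to actin, Msn, moesin, was higher at 433, 441 and 625 in the renal vesicle and 56.9, 17.6 and 176 in the collecting duct (2.64 ± 0.41), Ezr, ezrin, lower (-0.92 ± 0.17), and Rdx, radixin, did not pass the test. The nonmuscle myosins Myh9 and Myh14 were lower (-1.24 ± 0.18 and -1.39 ± 0.18), and Mylk, the kinase that activates myosin, was higher, at 1844, 2007 and 2036 in the renal vesicle and 411, 673 and 564 in the collecting duct (1.79 ± 0.19). Actb did not pass the test.

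Microtubule and cilium genes were lower for 10 of 40 and higher for 4 (35.0% changed, against 31.5% of all genes). Tubb2a was at 332, 434 and 351 in the renal vesicle and 2320, 1999 and 3431 in the collecting duct (-2.61 ± 0.21) and Tuba4a at 2196, 2869 and 1926 in the renal vesicle and 6616, 7582 and 6595 in the collecting duct (-1.67 ± 0.17). Pkhd1, the gene of recessive polycystic kidney disease, was at 105, 201 and 49 in the renal vesicle and 1428, 1702 and 1784 in the collecting duct (-3.56 ± 0.41), and Pkd1, that of the dominant form, did not pass the test. Of the intraflagellar transport genes Ift27 was higher (0.94 ± 0.32) with overlapping arrays, and the other 9 measured, among them Ift88 and Ift20, did not pass the test. The higher count of the list was 1 without renal vesicle array 1 or the array pair and 2 without renal vesicle array 2 or 3 or collecting duct array 2.

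Interferon-induced and antigen presentation genes were lower for 9 of 25 and higher for 3. B2m, the light chain of class I molecules, was at 216, 250 and 86.6 in the renal vesicle and 535, 595 and 504 in the collecting duct (-1.45 ± 0.29), and Tap1 and Tapbp, which load peptides on it, were lower by -0.99 ± 0.25 and -1.21 ± 0.21. Ifit2 was higher (1.85 ± 0.31). Without the array pair 1 gene was higher.

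Immediate-early and stress genes, which can respond within minutes to handling of tissue, were lower for 21 of 39 and higher for 4 (median -1.16), or higher for 2 without the array pair. Jun was at 1632, 1423 and 1427 in the renal vesicle and 5272, 6074 and 7574 in the collecting duct (-2.09 ± 0.18), Fos was lower by -2.01 ± 0.33, Egr2 by -3.51 ± 0.23 and Nr4a1 by -3.16 ± 0.21. Heat shock genes divided: the small heat shock gene Hspb1 was at 229, 168 and 190 in the renal vesicle and 2007, 2488 and 3692 in the collecting duct (-3.50 ± 0.24) and the inducible Hspa1b at 431, 461 and 546 in the renal vesicle and 4580, 4922 and 7014 in the collecting duct (-3.40 ± 0.32), whereas Hsph1 and Hsp90aa1 were higher (0.92 ± 0.13 and 0.55 ± 0.14) and Hspa8 did not pass the test. The unfolded protein response genes Hspa5, Ddit3, Atf4 and Xbp1 did not pass the test. Hspa1a and Hspa1b are near-identical copies, so their signals may not be separate. Klf6, Klf4 (-1.65 ± 0.22), Btg2, Ddit4 and Gadd45b (-1.72 ± 0.29) are members of this list too. Pool size differed between the structures, so its part in these differences cannot be told apart from that of the structure.

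The heat shock element, GAANNTTC on either strand, was found in the promoter windows of 7 of 34 genes of this list (20.6%) and of 4 of the 19 lower ones with a window (21.1%), against 6.84% of all tested genes. Of the 3 higher ones with a window 2 held it (66.7%). Windows are shown for the 3 lower genes with the smallest adjusted p and a match before the start site, with matches in capitals, at chr5:135887796-135887855 (plus strand) for Hspb1, chr4:95052317-95052376 (minus) for Jun and chr17:34959309-34959368 (minus) for Hspa1b.
Hspb1: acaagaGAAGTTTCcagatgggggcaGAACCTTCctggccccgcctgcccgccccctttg
Jun: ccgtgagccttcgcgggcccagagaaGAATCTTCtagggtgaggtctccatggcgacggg
Hspa1b: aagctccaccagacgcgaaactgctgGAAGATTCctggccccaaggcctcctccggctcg
The window of Hspa1b is the same, base for base, as that of Hspa1a at chr17:34972227-34972286 (minus). Hspb1 holds 2 matches, and the other windows hold 1 each. The antioxidant response element and the CArG box were searched for too. The first was found in 10 of 46 detoxifying genes with a window (21.7%) and in 17.1% of all tested genes. It was found in 4 of the 20 lower detoxifying genes (20%) and 1 of the 4 higher ones (25%). A CArG box was found in 2 of 34 immediate-early and stress genes (5.88%) and in 1.58% of all tested genes. It was found in 2 of the 19 lower ones (10.5%) and 0 of the 3 higher ones. As above, these are counts of letters and were not tested.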

How the data were processed

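Values are the signal intensities that the authors deposited for each probe set of the MOE430A arrays, a linear scale, per the labels and the series' value table; the submitters' processing notes name GCOS as software, and its settings are not given in the sources used here. Array medians of the deposited intensity ran from 112.2 to 144.8. Log2 of intensity plus 26 (the 20th percentile) was quantile normalised because array medians spread by 0.3 log2 units, over the limit of 0.25. Probe sets above their array's median on at least 3 arrays were kept, 12588 of 22690, and the brightest of 2490 genes with several was used. Gene symbols came from the platform annotation (20380 probe sets with 1 gene, 691 with several and 1555 with none, the last 2 kinds left out with 64 controls). The fit used limma 3.58.1 in R 4.3.3 on all 9 arrays, s-shaped body included to share the variance estimate (6 residual degrees of freedom), with an intensity trend and Benjamini-Hochberg adjustment over 7998 genes. The script was tested on simulated data.

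The changed genes followed over the alternatives were, per list, up to 5 changed members with the smallest adjusted p and the first in each direction. With the 15 strongest rises and falls over all genes these were 236 genes. Other changed genes named in the text were followed too. Not all of the 236 are named. Those left out include Lama4 (5.58 ± 0.18), Krt19 (-6.81 ± 0.4), Lgals3 (-5.91 ± 0.23) and Ctse (-5.69 ± 0.18). Members with a reference role are also named, and further members were chosen after their values were seen. The comparison and its lists were chosen with earlier results of these data known. Lists were described by counts and medians, with no test of a list. The count of 1 list is not reported here. Promoter windows are RefSeq's for GRCm38.p6. Alternatives covered the pseudocount, normalization, filter, probe set choice, variance model, samples fitted, replicate numbers as a block and each array left out. Arrays hold no read depth, and their number limits the precision.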

Additional observations from a re-analysis of the deposited data

How the results depend on the processing

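Of 7556 values of 371 changed genes over 21 alternative settings, 7283 kept their direction and passed the test, 256 kept their direction only and 17 changed sign. Of 1678 values of 82 named genes that had not passed the test, 75 passed. Sim1, for which another probe set became the brightest, was at -0.59 with a pseudocount of 8, at -0.54 with the dimmest probe set, at -0.55 with renal vesicle array 3 and collecting duct array 2 left out, and at -0.64 to 2.65 leaving out 1 array (-0.49, -0.58 and -0.64 without a renal vesicle array). The dimmest probe set turned the sign of Flt1 (0.12), Glis2 (0.37), Hoxa9 (-0.76), Nes (-0.24), Pdgfrb (-0.03), Ptpro (-0.28), Sox17 (0.09), Sox4 (0.22), Srsf1 (-0.09), Stat3 (0.42) and Tpm2 (-0.13). With renal vesicle array 3 and collecting duct array 2 left out, 1543 genes changed, 724 higher and 819 lower, with fewer arrays in the fit. Leaving out each array in turn gave 1831 to 2502 changed genes, 848 to 1302 higher and 883 to 1225 lower.

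Medians of lists kept their sign in all settings named here. The annexin median of -2.16 was -2.64 and -1.89 with pseudocounts of 8 and 64, -0.98 without the filter, -1.66 with the stricter filter, -1.48 with the dimmest probe set, -1.80 with the 2 arrays left out, and -2.44 to -1.47 leaving out 1 array. The homeobox median was 0.37 with a pseudocount of 64, 0.44 without further normalization, 0.04 without the filter and 0.25 to 0.69 leaving out 1 array. The median of glutathione and xenobiotic enzymes was -0.26 with median centring, -0.24 without the filter, -0.17 with the stricter filter, -0.32 with the dimmest probe set, -0.59 with 6 arrays in the fit and -0.53 to -0.23 leaving out 1 array. The tetraspanin median was -0.38 without further normalization, -0.16 without the filter, -0.48 with the dimmest probe set, -0.42 with 6 arrays in the fit, -0.34 with the 2 arrays left out and -0.42 to -0.20 leaving out 1 array. The Krüppel-like and ETS median was -0.59 without further normalization, -0.18 without the filter and -0.60 to -0.46 leaving out 1 array. The one-carbon median was 0.56 with median centring, 0.57 with the 2 arrays left out and 0.37 to 0.57 leaving out 1 array, and the replication median was 0.83 with median centring and 0.59 to 0.71 leaving out 1 array. The desmosome and keratin median was -0.82 without the filter and -1.64 to -1.54 leaving out 1 array, and the stress median was -0.69 with the dimmest probe set and -1.29 to -0.97 leaving out 1 array. The median of glycolysis genes was -0.46 to -0.28 and that of mitosis genes 0.68 to 0.83 leaving out 1 array. The cause of these shifts was not tested.

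With the replicate number as a replicate block 2607 genes changed, 1293 higher and 1314 lower, and 2437 of the 2519 were called again. Deviations of same-numbered arrays correlated at 0.11, -0.03 and 0.12, so the numbers were not taken to pair the samples.

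The 3 arrays of each structure limit the precision. Dim genes are compressed by the pseudocount, values of collecting duct samples came from single pieces of tissue and those of the renal vesicle from pools, and 2 rounds of amplification preceded hybridisation.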
